A study of Mus musculus with 7 samples.

Results

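The 4 wild-type libraries of a series of 7 were described as a reference for the normal mouse aorta at 7 weeks of age. They are all the samples labelled wild type (Col3a1+/+), of strain C57BL/6, untreated as far as the labels say, and the study describes them as thoracic aortas of 4 males. The other 3 libraries, from Col3a1+/G182R heterozygotes that carry a glycine substitution in type III collagen, were not compared here. Each library was made from poly(A) RNA of flash-frozen vessel with a stranded kit, so the layers of the wall and whatever still adhered to it were measured together. The study's general dissection protocol has the proximal part of the thoracic aorta freed of fat before it was frozen. Values are TPM (a transcript level that is corrected for transcript length and sums to the same total in each library) and expected counts (reads assigned to a gene, fractional where a read matches several genes). Levels are given in replicates 1 to 4 in that order, then as mean ± SD with n = 4.

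The aortic wall is built from 3 layers. The media holds smooth muscle cells between elastic lamellae, and its cells carry out contraction through actin, myosin and their regulators and also secrete elastin and fibrillar collagens. The adventitia outside it holds fibroblasts, nerves and small vessels in a collagen-rich matrix, and the intima is a sheet of endothelium. The descending thoracic aorta of the mouse is embedded in brown adipose tissue, which the dissection protocol was meant to remove.

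The labelled tissue was met by its markers. Acta2, the smooth muscle actin, stood at 15133, 10745, 12808 and 8950 TPM (11909 ± 2666). Myh11, the smooth muscle myosin heavy chain, stood at 1893, 1512, 1584 and 1277 TPM (1566 ± 254). Eln, the elastin precursor, stood at 9323, 6594, 5452 and 5342 TPM (6678 ± 1852). Replicate 1 was highest for all 3 and replicate 4 lowest. Col3a1, the type III collagen chain, had 3251, 2229, 1954 and 1465 TPM (2225 ± 754), also with replicate 1 highest and replicate 4 lowest. Pecam1, which marks endothelium, had 101.5, 49.0, 71.8 and 87.3 TPM (77.4 ± 22.5), with replicate 2 lowest. Within each library Acta2 was 149, 219, 178 and 102 times as high as Pecam1. Y-linked Eif2s3y had 69.8 to 127 TPM and the X-inactivation RNA Xist 0.08 to 0.98 TPM over the 4 libraries, which the study describes as male.

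Libraries held 13693861 to 21634680 expected counts, and replicate 4 was the shallowest. Of 55487 gene entries, 12922 reached 1 TPM in every library, of which 11582 are annotated as protein coding, and 14344 had a mean of at least 1 TPM. In edgeR the common biological coefficient of variation, the spread between libraries once counting noise is removed, was 23.1%. This coefficient cannot separate differences between mice from those of dissection and library preparation. It was 17.9% without replicate 4 and 22.9% to 26.3% without any 1 of the others. On the first principal component of log2 CPM, which held 62.8% of the variance, replicate 4 lay at 46.95 and the others at -29.67, -23.16 and 5.88. Rank correlations across the 14344 genes ran from 0.929 to 0.959 for pairs with replicate 4 and from 0.963 to 0.968 for the rest. These are descriptions across genes, which are not independent replicates.

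The most abundant entries were not muscle or matrix genes but mitochondrial sequence, listed under both its own name and that of copies in the nuclear genome. Of the 30 entries with the highest mean, 8 were genes of the mitochondrial chromosome and 5 were pseudogenes on chromosome 1. These 5 are fragments of mitochondrial DNA inserted next to each other between positions 24612775 and 24616197 (GRCm38, minus strand). Gm28661 matched mt-Co2 over 681 bases, Gm28437 matched mt-Co3 over 783 bases and Gm10925 matched mt-Atp6 over 678 bases, each with 100% identity. Gm29216 matched 483 bases at the end of mt-Co1 and Gm28438 matched 345 bases of mt-Nd3, each with 1 differing base. The windows around these bases are shown because they are the only letters within the matches by which a read of the mitochondrial transcript could be told from its copy. The capital is the differing base, A1066T in mt-Co1 and T3C in mt-Nd3, with positions counted from 1 at the first base of the mitochondrial transcript, the mitochondrial base first.
mt-Co1: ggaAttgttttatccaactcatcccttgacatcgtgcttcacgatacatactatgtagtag
Gm29216: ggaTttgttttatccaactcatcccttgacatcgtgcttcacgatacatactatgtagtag
mt-Nd3: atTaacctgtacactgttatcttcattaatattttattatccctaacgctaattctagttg
Gm28438: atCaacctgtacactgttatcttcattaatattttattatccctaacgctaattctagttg

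For the 3 pairs with full identity, nearly all expected counts were listed under the nuclear copy. Gm28661 held 97.3% to 98.5% of the counts of its pair with mt-Co2, and Gm10925 held 96.2% to 99.0% of those with mt-Atp6. Gm28437 took 100% of its pair in replicates 1 and 3 and 98.9% and 98.4% in replicates 2 and 4. As a result mt-Co3, a subunit of cytochrome c oxidase, was listed at 0.24, 315, 0.21 and 381 TPM, while Gm28437 was listed at 15554, 28974, 22160 and 23325 TPM. The row of mt-Co3 was thus near 0 in replicates 1 and 3 and at 315 TPM or more in replicates 2 and 4. Where sequences are identical the reads of a gene and its copy cannot be told apart, and levels of these 10 entries are uncertain one by one.

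Added together, the mitochondrial chromosome and its 5 copies took 16.7%, 25.3%, 22.0% and 23.6% of TPM (21.9% ± 3.74). By expected counts, which are not corrected for length, they took 11.5% ± 2.43. The 37 genes of the mitochondrial chromosome alone took 10.98% ± 1.57 of TPM and the copies 10.9% ± 2.33. Replicate 1 was the lowest of the 4 in both. The 22 mitochondrial tRNAs were listed at 0 in every library. By rows as listed, with no pair summed, mt-Co1 (25393 ± 4685 TPM) was followed on the mitochondrial chromosome by mt-Cytb (22048 ± 3905), which encodes cytochrome b of complex III, mt-Atp8 (13295 ± 2329), a subunit of ATP synthase, and mt-Nd1 (10901 ± 1808) and mt-Nd4 (10339 ± 1728) of complex I. Gm28661, the copy that held nearly all counts of its pair with mt-Co2, was above all of them at 33880 ± 7433 TPM. Because this block differed between libraries it set the scale of every other TPM. When it was taken out and the rest rescaled to the same total (called nuclear TPM), levels were multiplied by 1.20, 1.34, 1.28 and 1.31 in replicates 1 to 4.

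**Figure D1:**
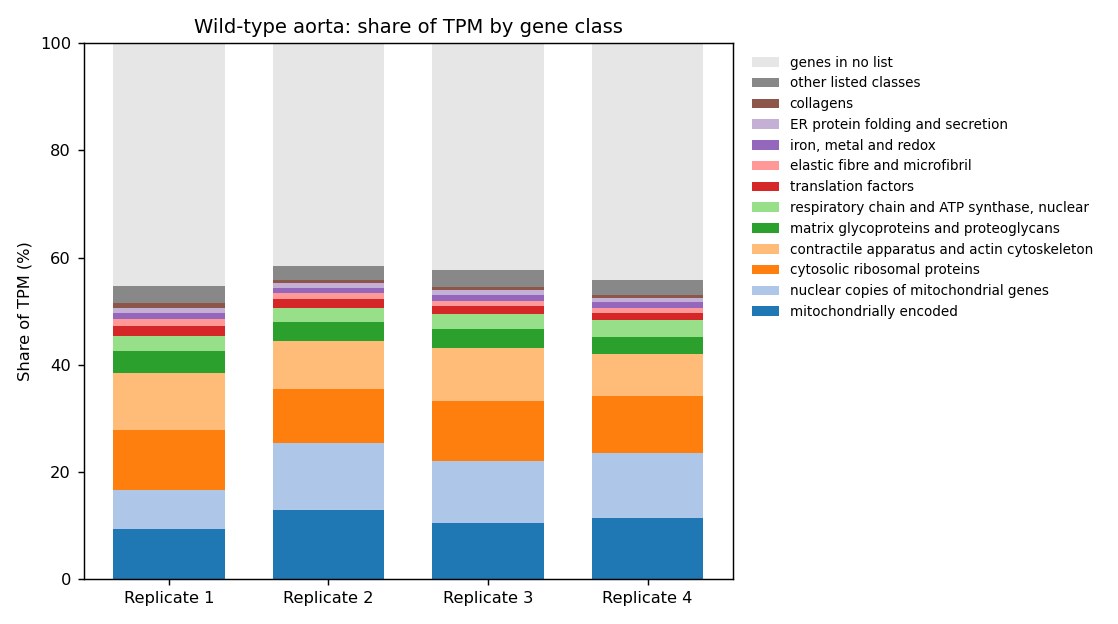
Stacked bars give the share of TPM (%) held by each gene class in each of the 4 wild-type libraries. The mitochondrial chromosome and its nuclear copies form the lowest blocks and total 16.7% in replicate 1 and 25.3% in replicate 2. By mean share ribosomal (10.7%) and contractile genes (9.38%) lie near the mitochondrial chromosome alone (10.98%). Single libraries differ, with contractile genes above it in replicate 1 (10.6% against 9.21%) and below it in the others (9.01% against 12.9% in replicate 2).

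Few genes held most of the remaining RNA. Over all entries 155 genes held 50% of TPM, and among nuclear genes without the copies 370 did. The 10 highest nuclear genes held 10.3% of nuclear TPM, the 100 highest 31.6% and the 1000 highest 64.8%. Of the 30 highest genes by mean nuclear TPM, 12 were contractile or cytoskeletal, 6 belonged to the matrix and 6 encoded ribosomal proteins. By mean TPM, as plotted, Col3a1 takes the place of Rpl10 among the 30. Of the 100 highest, 56 encoded ribosomal proteins, 17 were contractile and 8 were matrix genes. Altogether 109 genes passed 1000 TPM in every library and 1031 passed 100 TPM.

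**Figure D2:**
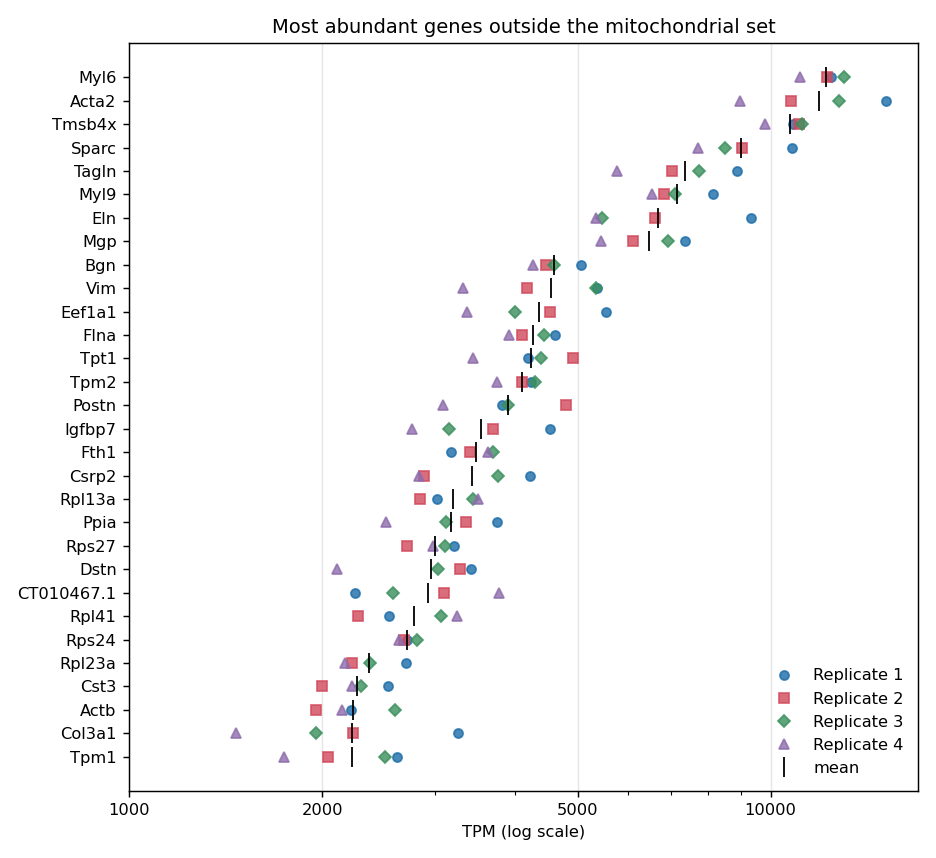
The 30 most abundant genes outside the mitochondrial set, ranked by mean TPM, are plotted by TPM (log scale), with 1 symbol per wild-type library and a bar at the mean. Myl6, Acta2 and Tmsb4x lead with means of 12195, 11909 and 10734 TPM, and replicate 4 has the lowest value for Acta2, Tagln, Eln and Col3a1.

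The contractile and cytoskeletal class took more TPM than the extracellular matrix genes. Its 63 entries all had a mean above 1 TPM and took 10.6%, 9.01%, 9.96% and 7.91% of TPM (9.38% ± 1.19), or 11.99% ± 1.15 of nuclear TPM. The class is wider than smooth muscle markers. The 17 genes of the smooth muscle list took 2.60% ± 0.531 of TPM, and Myl6 and Tmsb4x are not in that list. The myosin light chain Myl6 was the highest nuclear gene, at 12414, 12225, 13014 and 11128 TPM, and it varied little between libraries (CV 6.45%). Tmsb4x, which binds actin monomers, was as even, with 10848, 11091, 11199 and 9800 TPM (CV 5.96%). Tagln, the smooth muscle protein transgelin, was more spread with 8877, 7018, 7729 and 5757 TPM. Myl9, the regulatory light chain, had 8143, 6827, 7094 and 6526 TPM. Cnn1, the contractile regulator calponin, had 1784, 1302, 1341 and 796 TPM (CV 30.9%). The even members of the class included the tropomyosin Tpm2 (4091 ± 246 TPM) and the actin crosslinker Flna (4265 ± 316). In each library the smooth muscle actin Acta2 was 4.17 to 6.82 times as high as the cytoplasmic actin Actb and 26.4 to 37.2 times as high as the visceral form Actg2. Myh11 was 13.5 to 26.6 times as high as the non-muscle heavy chain Myh9 and 3.97 to 5.28 times as high as Myh10.

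Members of the class were often lowest in replicate 4, which can be read against all genes. Of the 63 contractile entries, 41 were lowest in replicate 4 in TPM and 43 in nuclear TPM, where 30.8% and 28.6% of all genes were lowest in that library. Replicate 1 was the highest for 40 of them in TPM, where 40.0% of all genes were, and for 27 in nuclear TPM, where 25.9% of all genes were. Replicate 1 was lowest for 0 of them in TPM and 4 in nuclear TPM, against 17.5% and 27.9% of all genes. In a bulk sample fewer cells of a type and less RNA per cell cannot be told apart.

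Many smooth muscle genes carry a CArG box, the letters CC, then 6 of A or T, then GG, which is bound by serum response factor. The box was looked for on both strands (it reads alike on each) in RefSeq promoters of GRCm38.p6, from 250 bases before to 50 after the start. Of 54 contractile genes with an entry, 8 held a match (14.8%): Actg1, Myl6, Myl9, Cnn2, Vcl, Ldb3, Fhl1 and Dmd. Of all 27025 genes with an entry, 488 did (1.81%). The smooth muscle markers Acta2, Tagln, Myh11, Cnn1 and Smtn were not among the 8. The class has 63 entries, and whether these markers were among the 54 searched is not given here. A box outside the window or with other letters would not be counted. Of the other lists, the share was next highest in immediate early genes (3 of 29, 10.3%), long non-coding RNAs (1 of 10), vascular transcription factors (4 of 68, 5.88%) and glycolytic genes (1 of 18, 5.56%). It was 2 of 91 matrix genes (2.20%) and 0 of 22 Hox genes. A match is only a description of the letters in this window. The windows of 4 contractile genes that differ in level are shown, with the box in capitals.
Myl6: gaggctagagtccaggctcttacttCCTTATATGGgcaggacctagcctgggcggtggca
Myl9: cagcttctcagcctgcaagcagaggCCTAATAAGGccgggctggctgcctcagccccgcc
Actg1: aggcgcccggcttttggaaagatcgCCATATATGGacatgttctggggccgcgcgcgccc
Cnn2: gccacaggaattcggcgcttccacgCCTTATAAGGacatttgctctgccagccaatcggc
They lie at chr10:128493025-128493084 (minus strand), chr2:156775278-156775337 (plus), chr11:120348551-120348610 (minus) and chr10:79988519-79988578 (plus), and their boxes begin 50, 161, 90 and 56 bases before the start. The mean levels of these 4 genes were 12195 TPM for Myl6, 7148 TPM for Myl9, 1225 TPM for Actg1 and 217 TPM for Cnn2.

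The extracellular matrix genes (collagens, elastic fibre, glycoproteins and proteoglycans) took 5.24% ± 0.81 of TPM and 6.69% ± 0.771 of nuclear TPM. By expected counts, which are not corrected for the length of these long transcripts, they took 8.06% ± 1.13. Glycoproteins and proteoglycans led with 4.09%, 3.51%, 3.45% and 3.02% of TPM. Sparc, a collagen-binding glycoprotein, had 10802, 9025, 8501 and 7697 TPM. Mgp, an inhibitor of arterial calcification, had 7365, 6104, 6920 and 5442 TPM. The small proteoglycan Bgn was the most even of these, at 5069, 4461, 4600 and 4257 TPM (CV 7.51%). Periostin (Postn), a matricellular protein, was highest in replicate 2 at 4796 TPM and had 3808, 3902 and 3080 TPM in the others. Igfbp7, a secreted binding protein of the vessel wall, followed at 3537 ± 769 TPM.

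The elastic fibre genes took 1.44%, 1.04%, 0.938% and 0.916% of TPM, and Eln alone made up 61.6% of their sum. The microfibril-associated Mfap4 stood at 1545, 1051, 1112 and 1268 TPM and Mfap5 at 920, 661, 691 and 588 TPM. Fbln5, which ties elastin to cells during fibre assembly, had 508, 402, 323 and 249 TPM. Ltbp1, which holds latent TGF-β in the matrix, had 410, 397, 398 and 289 TPM. The fibrillin Fbn1 had a mean of 79.6 TPM, and Eln was 87.4, 79.8, 76.4 and 92.2 times as high in the 4 libraries. This ratio was steadier than the level of Eln itself, with a CV of 27.7%. Against the crosslinking enzyme Lox the ratio of Eln was 42.0, 42.0, 42.8 and 76.6, with replicate 4 apart.

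Of 44 collagen genes, 27 had a mean of at least 1 TPM and 26 reached it in every library. Together they took 0.85%, 0.603%, 0.573% and 0.535% of TPM, and Col3a1 made up 34.8% of the sum. Col1a2 had 1238, 810, 758 and 743 TPM and Col1a1 535, 286, 303 and 462 TPM. Both are chains of type I collagen, whose usual trimer holds more of the Col1a1 chain, yet Col1a2 had 2.31, 2.83, 2.50 and 1.61 times the TPM of Col1a1. Col3a1 had 6.07, 7.78, 6.45 and 3.17 times the TPM of Col1a1, with replicate 4 lowest. The basement membrane chains Col4a1 and Col4a2 kept a ratio of 1.72, 1.67, 1.78 and 1.48. Col18a1, of vascular basement membranes, was the steadiest of the leading chains at 528, 474, 450 and 445 TPM. Replicate 1 was the highest library for 18 of the 27 collagens and 17 of 21 elastic fibre genes in TPM, where 40.0% of all genes were, and for 17 and 15 in nuclear TPM, where 25.9% of all genes were. Type II collagen of cartilage (Col2a1) was at 0.19, 0.03, 0 and 0.14 TPM.

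By the median CV of their members, ribosomal proteins were steadier than muscle and matrix genes. The 78 cytosolic ribosomal proteins took 11.2%, 10.1%, 11.1% and 10.6% of TPM (10.7% ± 0.517) but only 4.13% of expected counts, as their transcripts are short. Rpl13a (3201 ± 318 TPM), Rps27 (3002 ± 217) and Rpl41 (2780 ± 452) led, and Rps24 had a CV of 2.77%. The median CV of the ribosomal proteins was 7.10%, against 17.3% for contractile genes, 25.9% for elastic fibre genes and 32.0% for collagens. It was 14.1% for translation factors and 17.7% for cytosolic chaperones, the latter no lower than for contractile genes. CV was lower in more abundant genes, as given below, and the classes were not matched for level. Median edgeR coefficients lay closer together. They were 15.8% for ribosomal proteins, 18.6% for contractile genes, 20.7% for elastic fibre genes and 22.8% for collagens. The 87 nuclear genes of the respiratory chain and ATP synthase took 2.73%, 2.66%, 2.82% and 3.20% of TPM (2.85% ± 0.242), led by Atp5b of ATP synthase at 1358, 1424, 1771 and 2136 TPM. Of the 84 with a mean above 1 TPM, 56 were highest in replicate 4, where 37.3% of all genes were, and 59 were in nuclear TPM, where 40.8% of all genes were. Glycolytic genes took 0.379% ± 0.0437, led by Gapdh at 767, 770, 1012 and 1056 TPM. Translation factors took 1.67% ± 0.218, with Eef1a1 at 5531, 4522, 3997 and 3357 TPM.

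Genes of protein folding in the endoplasmic reticulum took 0.86% ± 0.101 of TPM. Serpinh1, the collagen-specific chaperone Hsp47, had 821, 675, 780 and 644 TPM, and P4hb, a subunit of the prolyl hydroxylase that modifies collagen, had 673, 513, 776 and 727 TPM. Hspa5, the chaperone BiP, was less even at 557, 443, 615 and 271 TPM. Among cytosolic chaperones (0.471% ± 0.0784) Hspa8 had 1076, 858, 1446 and 723 TPM and the small heat shock protein Hspb1 332, 216, 494 and 224 TPM, with replicate 3 highest in both. The iron store Fth1 led the iron, metal and redox class, which took 1.03% ± 0.0461, and stood at 3174, 3399, 3695 and 3626 TPM. Ubiquitin and proteasome genes took 0.613% ± 0.0482, led by the polyubiquitin gene Ubb at 813, 749, 541 and 548 TPM. Long non-coding RNAs of the list took 0.184% ± 0.0382, with Neat1, the scaffold of nuclear paraspeckles, at 466, 479, 766 and 955 TPM.

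The signals and receptors of vascular tone were low beside these. The list of 80 receptors and channels took 0.235% ± 0.017 of TPM, and 56 of its members reached 1 TPM in every library. Ptgis, the prostacyclin synthase, led at 571, 434, 545 and 340 TPM, and the natriuretic peptide receptor Npr1 had 202, 203, 247 and 269 TPM. Ramp1, a partner of the receptor for calcitonin gene-related peptide, was even at 163, 164, 175 and 153 TPM. Atp2a2, the calcium pump of the sarcoplasmic reticulum, had 223, 191, 142 and 103 TPM. The angiotensin receptor Agtr1a, named here because the study treats mice with a blocker of that receptor, had a mean of 3.51 TPM. Among secreted signals the matricellular Ccn2 had 895, 374, 1312 and 921 TPM and Ccn3 435, 256, 225 and 119 TPM. Both moved between libraries by more than most, with CVs of 44.0% and 50.9%. Complement genes took 0.193% ± 0.0333 of TPM, cell division genes 0.0628% ± 0.008 and glucocorticoid responsive genes 0.027% ± 0.00186.

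Transcription factors of the vessel took 0.214% ± 0.0372 of TPM. The inhibitors of differentiation Id3, at 335, 320, 207 and 231 TPM, and Id2, at 289, 320, 142 and 93.2 TPM, were the highest and were both higher in replicates 1 and 2 than in 3 and 4. Heyl, a Notch target, had the same order, with 133, 133, 81.3 and 83.1 TPM. The Hox genes, which record position along the body axis, showed a bounded pattern. Of 39 genes, 19 reached 1 TPM in every library, all from paralogue groups 1 to 9, and the 9 genes of groups 11 to 13 were listed at 0 in every library. Hoxa7 was highest at 22.9, 36.0, 38.0 and 37.9 TPM, with replicate 1 apart. Hoxa3 (22.2 ± 4.49 TPM), Hoxb6 (21.5 ± 3.27), Hoxa5 (18.5 ± 1.75) and Hoxb4 (18.3 ± 2.68) followed. By summed TPM, group 7 led with 50.7 ± 9.87 and group 8 had 10.2 ± 2.44, group 9 had 3.28 ± 0.677 and group 10 had 0.338 ± 0.121. Clusters A and B held the 10 highest genes, and the highest gene of cluster C was Hoxc6 at 4.04 ± 0.643 TPM.

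**Figure D3:**
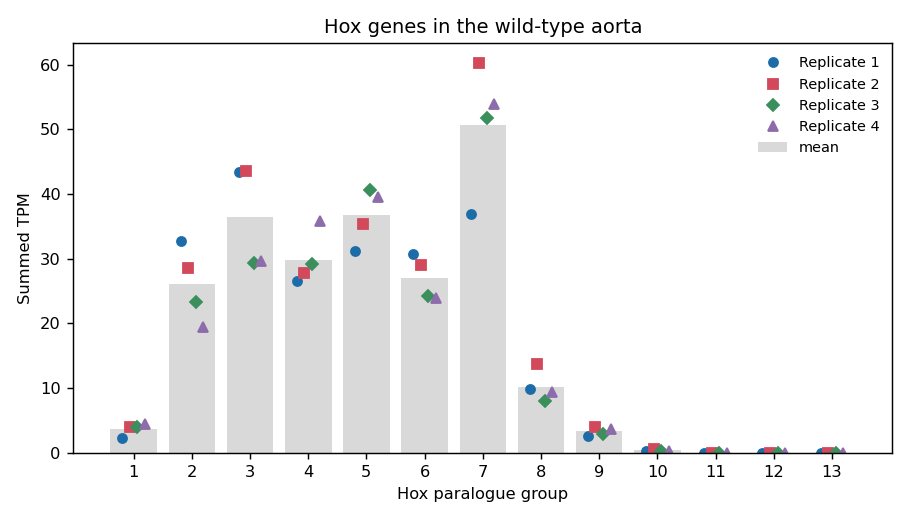
Summed TPM of the Hox genes is shown by paralogue group, with a bar at the mean of the 4 wild-type libraries and 1 symbol per library. Groups 2 to 7 have means of 26.0 to 50.7 TPM, group 8 has 10.2 TPM, and groups 11 to 13 are at 0.

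Cell type lists placed smooth muscle first. The 17 smooth muscle genes summed to 32477, 24651, 27194 and 19726 TPM (26012 ± 5309), and 14 of them were highest in replicate 1 (40.0% of all genes) and 13 lowest in replicate 4 (30.8% of all genes). In nuclear TPM 10 were highest in replicate 1 (25.9% of all genes) and 12 lowest in replicate 4 (28.6%). Without Acta2 the sum was 17344, 13907, 14386 and 10776 TPM. The 10 pericyte genes, some of which smooth muscle also expresses, were led by Mcam at 577 ± 73.7 TPM. Their sum was far steadier, with 1220, 1096, 1244 and 1154 TPM (CV 5.67%, against 20.4% for the smooth muscle sum). Taken singly the members were not, with a median CV of 20.7% against 22.4% in the smooth muscle list. Median edgeR coefficients were 18.8% and 18.6%.

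Adventitial fibroblast genes summed to 4018, 2054, 2541 and 2616 TPM, and 15 of the 18 with a mean above 1 TPM were highest in replicate 1 in TPM and in nuclear TPM, where 40.0% and 25.9% of all genes were. Dcn, the proteoglycan decorin, had 478, 151, 156 and 113 TPM, and Dpt, dermatopontin, had 305, 132, 170 and 154 TPM. Pi16, of adventitial progenitor-like fibroblasts, had 211, 75.9, 135 and 144 TPM, and the growth factor receptor Pdgfra 13.3, 8.96, 6.87 and 6.31 TPM. Cytl1, a secreted cytokine-like protein, was also highest in replicate 1, with 148, 27.6, 38.9 and 24.0 TPM.

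Endothelial genes summed to 2407, 1962, 2554 and 4254 TPM, but 76.7% of the sum was Fabp4, a fatty acid carrier that adipocytes also express. Without Fabp4 the sum was 630, 368, 623 and 985 TPM, with replicate 2 lowest and replicate 4 highest in both. Of the 23 genes 17 were highest in replicate 4 in TPM and 21 in nuclear TPM, where 37.3% and 40.8% of all genes were. Cdh5, the endothelial cadherin, had 18.3, 9.85, 17.9 and 32.0 TPM and the VEGF receptor Kdr 9.37, 6.03, 11.98 and 22.4 TPM. Gpihbp1, which anchors lipoprotein lipase to capillaries, had 42.9, 42.5, 70.8 and 143 TPM. Vwf, the clotting factor carrier, had 53.0, 12.3, 47.1 and 49.2 TPM, with replicate 2 again lowest. Replicate 1 was above replicate 4 by less than their nuclear factors of 1.20 and 1.31 differ. Pecam1, given above, was also highest in replicate 1, at 101.5 TPM against 87.3 in replicate 4. Of the lymphatic list, the chemokine gene Ccl21a, which has near-identical copies, led with 12.7, 11.1, 3.24 and 21.8 TPM and 49.4% of the sum. Pdpn, podoplanin, had 10.1, 3.93, 8.01 and 7.15 TPM and the hyaluronan receptor Lyve1 3.97, 2.69, 1.97 and 1.59 TPM. The defining factor Prox1 was at 0.11, 0.01, 0.13 and 0.31 TPM.

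By mean summed TPM the shared fat list, at 3597, came next after smooth muscle, though in replicate 1 the fibroblast list was higher. The brown fat list, at 1287, was below the fibroblast and endothelial lists. Its place below the endothelial list rested on Fabp4, which adipocytes also express. Without Fabp4 the endothelial mean was 652 TPM, below the brown list with its highest gene Cox8b (1287) or without it (870). The shared list of white and brown adipocytes summed to 2506, 2701, 3709 and 5471 TPM and the brown list to 1009, 1081, 1102 and 1957 TPM. Of the genes with a mean above 1 TPM, 18 of 20 shared and 11 of 13 brown genes were highest in replicate 4 in TPM, and 18 and 12 in nuclear TPM, where 37.3% and 40.8% of all genes were. Ucp1, the uncoupling protein of brown fat, was present in every library at 209, 231, 241 and 429 TPM, and Cidea, a lipid droplet protein of brown fat, had 111, 128, 144 and 230 TPM. The ratio of Ucp1 to Cidea was 1.87, 1.80, 1.67 and 1.87. Adipoq, adiponectin, had 82.9, 101, 121 and 163 TPM, Fasn, the fatty acid synthase, 302, 303, 371 and 815 TPM, and Cox8b, a muscle and brown fat subunit of cytochrome oxidase, 322, 354, 343 and 651 TPM. The respiratory chain genes described above were also most often highest in replicate 4. In the same library, which stood apart on the first component, endothelial genes were high and contractile genes low, and the part of each in the spread was not tested.

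Antigen presentation genes were also highest in replicate 4. They summed to 1557, 1318, 1709 and 2128 TPM, and 13 of 14 with a mean above 1 TPM were highest in replicate 4, where 37.3% of all genes were. The class I chain H2-K1 had 331, 257, 482 and 661 TPM and the class II chaperone Cd74 21.0, 24.1, 34.4 and 64.7 TPM, whereas the shared light chain B2m was even at 796, 743, 767 and 842 TPM. Leukocyte markers were low. Macrophage genes summed to 338, 205, 234 and 272 TPM, led by the lysozyme gene Lyz2 at 116, 76.2, 84.5 and 79.7 TPM, with C1qa at 31.02, 16.9, 19.7 and 24.2 TPM and Csf1r at 4.37 to 9.34 TPM. The T cell gene Cd3e was at 0, 0, 0 and 0.07 TPM and the B cell gene Cd79a at 0.12 to 0.79 TPM. The sum of the T and NK list, 27.1 to 97.4 TPM, was 88.7% Thy1, which fibroblasts and neurons express too. Mast cell protease Mcpt4 had 2.06, 6.98, 4.16 and 8.80 TPM.

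The lists for red blood cells and for other muscle had far smaller sums than the smooth muscle list. Red blood cell genes summed to 758, 428, 1076 and 524 TPM, with Hbb-bs, an adult globin chain, at 296, 202, 469 and 215 TPM, so that replicate 3 was highest and replicate 2 lowest. Cardiac muscle genes summed to 228, 145, 107 and 82.9 TPM, and 11 of the 12 with a mean above 1 TPM were highest in replicate 1, where 40.0% of all genes were. In nuclear TPM 8 of the 12 were, against 25.9% of all genes, and 3 were highest in replicate 2. Myoz2 led the list with 25.8% of the sum and was highest in replicate 3, with 47.7, 22.8, 50.5 and 24.3 TPM. Myh6, the atrial and mouse ventricular heavy chain, had 16.2, 12.9, 2.38 and 1.67 TPM. Tnnt2, cardiac troponin T, had 23.5, 14.4, 8.46 and 5.07 TPM and Actc1, cardiac actin, had 27.6, 7.71, 3.56 and 3.67 TPM. The list has 19 members, and those below a mean of 1 TPM included other heart genes. The atrial hormone gene Nppa was at 0 to 0.48 TPM, Myl2 at 0 to 0.23, Nkx2-5 at 0 to 0.06 and Mybpc3 at 0.02 to 0.64. The skeletal list summed to 584, 502, 529 and 489 TPM, and 65.7% was Casq1, a calcium store protein. Without it 136 to 235 TPM remained, and 11 of the 21 members had a mean of at least 1 TPM, among them Tcap of the sarcomere at 55.1, 143, 62.8 and 92.6 TPM. Of the defining genes the creatine kinase Ckm had 4.83, 5.22, 2.57 and 3.20 TPM, skeletal actin Acta1 had 0.14 to 0.42 TPM and Myh4 was at 0 in each library. For Schwann cells 87.5% of the sum was Pmp22. The mesothelium list summed to 27.5 to 41.7 TPM, of which 81.9% was the keratin Krt18, while its defining genes Msln (0.07 to 1.39 TPM) and Upk3b (0.04 to 0.37) were low. Defining genes of epithelium (Epcam, 0 to 0.10, and Krt5, 0 to 0.05) and the list for thymus or parathyroid (summed, 1.36 to 3.30) were at or near 0. The lists for B and plasma cells (51.2 ± 22.7 TPM, 82.5% of it Ighm), neurons (93.7 ± 21.6, 95.2% of it Uchl1), platelets (20.6 ± 12.6), cartilage and bone (14.0 ± 2.24) and neutrophils (9.11 ± 3.42) were low as well.

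**Figure D4:**
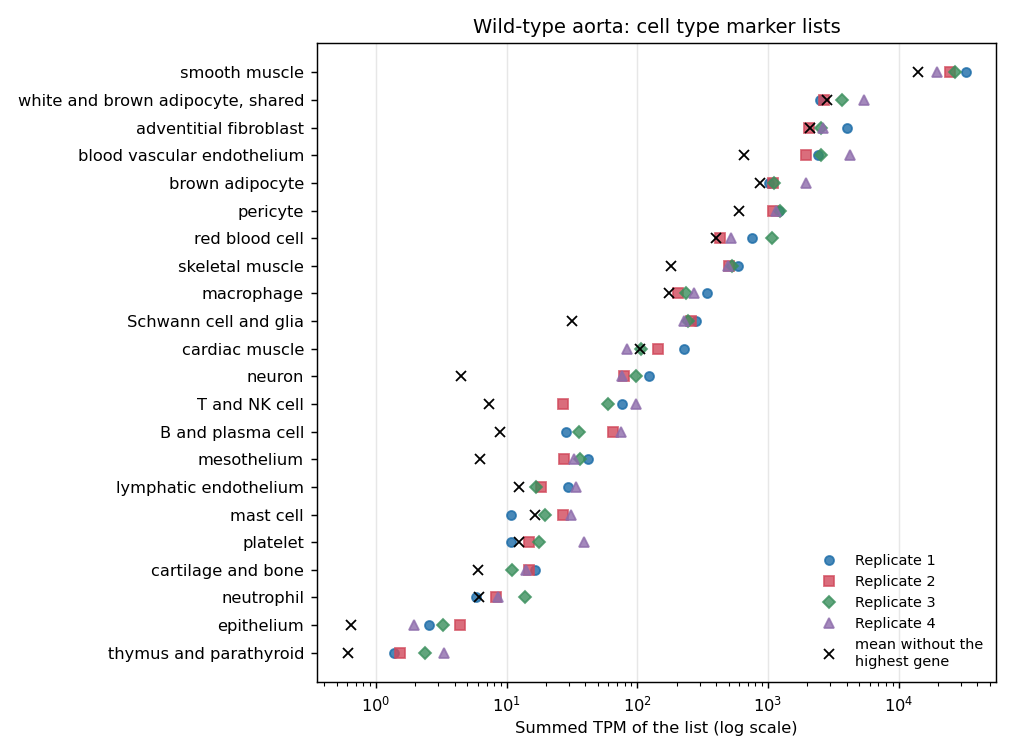
Summed TPM (log scale) of each cell type marker list is shown with 1 symbol per wild-type library, and a cross marks the mean without the list's highest gene. Smooth muscle has a mean of 26012 TPM and the shared fat, fibroblast and endothelial lists follow. Of the endothelial sum 76.7% is Fabp4, and the mean without it is 652 TPM. In the Schwann cell, neuron, T cell, B cell and mesothelium lists 81.9% to 95.2% of the sum is 1 gene each.

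Spread between the libraries depended on abundance. Over the 14344 genes the median CV of TPM was 21.1%, and the middle 50% of genes lay between 13.4% and 32.9%. It was 33.0% in 3980 genes of 1 to 5 TPM, 20.2% in 4978 genes of 5 to 20, 17.1% in 4110 genes of 20 to 100, 14.4% in 1152 genes of 100 to 1000 and 9.89% in 124 genes above 1000. Counting alone would give median CVs of 13.5%, 5.50%, 3.36%, 1.88% and 0.835% in these bins, below the observed values in each. An SD of log2(TPM + 1) over 0.5 was found in 2063 genes.

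**Figure D5:**
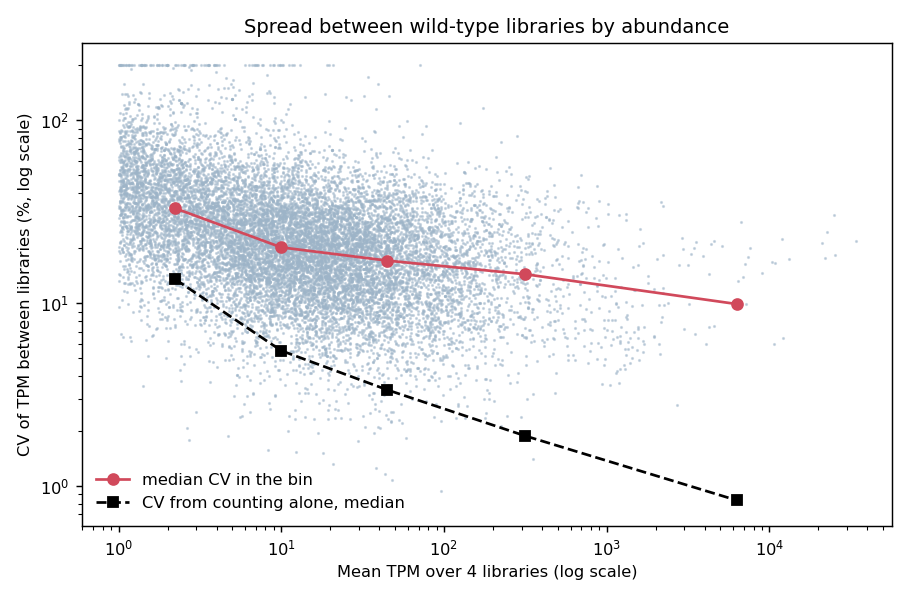
Each point is a gene with a mean of at least 1 TPM, placed by mean TPM and by its CV between the 4 wild-type libraries (both log scales), with lines for the median CV and for the CV that counting alone gives. The median CV runs from 33.0% below 5 TPM to 9.89% above 1000 TPM, while the counting line runs from 13.5% to 0.835%.

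Among genes of at least 10 TPM, 10 of the 20 with the largest SD were small RNAs, none with a mean above 9.86 counts. Snord13 was listed at 14.1, 0, 122.9 and 0 TPM and Mir7082 at 0, 0, 76.2 and 0 TPM. When protein-coding genes with a mean of at least 50 counts were ranked instead, a choice made after the data were seen, the SD of the first 20 ran from 0.949 to 1.24, and 10 were highest in replicate 1 and 10 in replicate 4, where 40.0% and 37.3% of all genes were. In nuclear TPM 8 were highest in replicate 1, 11 in replicate 4 and 1 in replicate 2. Those of replicate 4 included Adrb3, the adipocyte β3-adrenergic receptor, with 20.9, 13.1, 29.7 and 84.8 TPM, Car4, a membrane-bound carbonic anhydrase, with 9.76, 8.86, 25.9 and 47.4 TPM, and Rbp7, a retinol carrier, with 17.3, 13.3, 10.1 and 58.5 TPM. The endothelial receptors Aplnr (8.57, 3.82, 12.3 and 27.6 TPM) and Robo4 (5.62, 3.75, 9.48 and 22.5) were among them too. Those of replicate 1 included the TGF-β and BMP pathway inhibitors Smad6, at 26.4, 22.3, 6.27 and 4.23 TPM, and Smad7, at 26.5, 13.1, 7.16 and 5.20 TPM, and the α1D-adrenergic receptor Adra1d, at 24.7, 22.7, 7.01 and 5.90 TPM. These 3 shared the order of Id2 and Heyl, with replicates 1 and 2 above 3 and 4.

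Of the 19 clock genes, 6 were highest in replicate 2, 5 in replicate 1, 3 in replicate 3 and 5 in replicate 4, where 13.8% of all genes were highest in replicate 2 (23.5% in nuclear TPM). Of the 5 most abundant, 4 were highest in replicate 2. Dbp, a clock output factor, had 22.9, 68.1, 18.7 and 34.8 TPM, Nr1d1, the repressor Rev-erbα, 51.4, 78.6, 35.5 and 36.2 TPM, and Tef 29.6, 60.3, 35.8 and 46.8 TPM. The related repressor Nr1d2 had 15.7, 33.0, 15.9 and 19.5 TPM. Nfil3, which opposes Dbp at shared sites, was lowest there, with 24.9, 12.2, 29.3 and 21.5 TPM. Of the immediate early genes with a mean above 1 TPM, 18 of 32 were highest in replicate 1, where 40.0% of all genes were, with Dusp1, a MAP kinase phosphatase, at 122, 57.0, 75.6 and 77.0 TPM. The time of day at harvest is not given in the sources used here.

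At the other end, 10 genes of at least 10 TPM kept an SD of log2(TPM + 1) of 0.026 or less. Ddx50, an RNA helicase, had 97.3, 95.8, 96.8 and 95.2 TPM. Kdm1a, a histone demethylase, had 38.7, 38.2, 38.7 and 37.7 TPM. Mrpl33, of the mitochondrial ribosome, had 353, 345, 355 and 356 TPM. The others were Cdv3, Lgals8, Atg4a, Spryd4, Mcmbp, Ngrn and Htatsf1. All 10 were picked as the lowest of many genes ranked on 4 values each. In edgeR the coefficients of variation of Ddx50, Kdm1a and Mrpl33 were 17.3%, 14.9% and 15.5%. Medians were 17.9% for genes of 20 to 100 TPM and 17.1% for those of 100 to 1000. The 10 genes were chosen in TPM, and in nuclear TPM their spread also carries the factors of 1.20 to 1.34 given above.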

How the data were processed

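Aortas were flash frozen and libraries made from 1 µg of total RNA with a stranded poly(A) kit. The submitters' processing notes name STAR 2.7.6a, RSEM 1.3.1 and GRCm38, while the study's methods describe another counting pipeline, and the annotation release is not given in the sources used here. The authors deposited expected counts and TPM per gene from RSEM for each library, and 55227 of 55487 entries carry a symbol in GENCODE M21. Reads that match several genes are divided by RSEM, which touches copies and overlapping genes.

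Shares, CVs and SDs were computed from the deposited TPM in Python 3.11.15 (pandas 2.3.3), with a pseudocount of 1 for log2 values. Dispersion came from expected counts rounded to whole numbers, with filterByExpr (minimum count 10) and TMM in edgeR 4.0.16 under R 4.3.3, with DESeq2 1.42.0 beside it. The step was tested on simulated data. Pseudogenes of at least 10 TPM were aligned to mitochondrial transcripts with blastn 2.17.0 and kept at 95% identity. Samples were grouped by genotype, as the titles give it. No comparison between groups was made, and no significance test apart from the flagging of values by Dixon's limit given below. The 23 functional and 23 cell type lists, the rule and the members were chosen with earlier results of these data known, and 5 symbols matched no entry. Genes named are the 30 most abundant, the 5 highest of a list with its defining markers, and the 20 most and 10 least variable of at least 10 TPM. Agtr1a, Fbn1, Lox, Actb, Actg2, Myh9, Myh10, Hoxc6, Cnn2, Actg1 and the variable protein-coding genes were named after their values were seen. Alternatives were other TPM minimums, pseudocounts, scalings and normalizations, and leaving out each library.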

Additional observations from a re-analysis of the deposited data

Results flagged for a closer look

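For 269 values (list sums and named genes of at least 10 TPM) the gap of the highest or lowest library was set against the range of the 4, and 18 (6.69%) passed Dixon's limit for 4 samples. Chance passes about 1 in 20 independent groups. These values were not independent, as list sums share members with named genes. Some genes were also named for their large spread in the same libraries, so the share of 6.69% cannot be set against chance. Of the 18, 7 set replicate 4 apart, 7 replicate 1, 3 replicate 3 and 1 replicate 2.

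In replicate 4 the brown adipocyte list summed to 1957 TPM, against 1009 to 1102 in the others, and 2 of its genes stood out with it. These were Ucp1, at 429 TPM against 209 to 241, and Cox8b, at 651 TPM against 322 to 354. Fasn of fatty acid synthesis was at 815 TPM, against 302 to 371. The tubulin Tuba1b was lower there, at 257 TPM against 328 to 339, and so was Ltbp1, at 289 TPM against 397 to 410. Rnu11, a spliceosomal RNA, was at 32.2 TPM against 3.70 to 5.67.

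In replicate 1 the matrix genes Dcn, at 478 TPM against 113 to 156, and Col1a2, at 1238 TPM against 743 to 810, stood above the others, as did Cytl1, at 148 TPM against 24.0 to 38.9. Hoxa7 was below, at 22.9 TPM against 36.0 to 38.0. The nuclear copies of mitochondrial genes summed to 74494 TPM there, against 116360 to 123946, with Gm28661 at 22866 TPM against 35948 to 38645 and Gm28438 at 5473 TPM against 7293 to 7549.

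In replicate 3 the small RNAs Mir7082 and Mir8116 were at 76.2 and 40.9 TPM and were listed at 0 in the other libraries. Snord13 was at 122.9 TPM against 0 to 14.1. In replicate 2 the glycolytic gene Pkm was at 326 TPM, against 402 to 408.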

How the results depend on the processing

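Of 75 recomputed summary values 56 stayed within their limit (1.5 times for a count, 1 SD for a share). By expected counts 475 genes held 50% of the total and the shares were 7.41% for mitochondrial genes, 8.06% for matrix, 4.13% for ribosomal proteins and 1.12% for the respiratory chain; counts carry no correction for length. Without the genes of the mitochondrial chromosome, ribosomal proteins took 12.1% and the respiratory chain 3.21%. Without the nuclear copies too, a choice made after the data were seen, 370 genes held 50% and the shares were 11.99% for contractile genes, 6.69% for matrix, 13.7% for ribosomal proteins and 3.66% for the respiratory chain. With the copies added the mitochondrial share was 21.9% of TPM and 11.5% of expected counts. The latter is among the 56 because it was set against the 10.98% of TPM without the copies. The median CV was 18.1% from 5 TPM up and 38.1% with no filter, and 16.3% (without replicate 4) to 22.2% with 1 library left out. The coefficient from edgeR was 17.9% to 26.3% with 1 library left out, lowest without replicate 4, and 20.8% by DESeq2. Genes with an SD over 0.5 numbered 748 with a pseudocount of 5, and 1312 (without replicate 4) to 2812 (without replicate 3) with 1 library left out, against 2063 in all 4. No paired analysis was possible because only 1 group was described. Small RNAs and genes near 1 TPM rest on few counts, which limits what their spread can show.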
